A study of Mus musculus with 24 samples.

Results

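Nuclear genes for the subunits of the mitochondrial respiratory chain and ATP synthase were followed in RNA-seq values of mouse splenic B cells. Members were the rows whose gene symbol starts with Nduf followed by a, b, c, s or v and a number (complex I), is Sdha, Sdhb, Sdhc or Sdhd (complex II), starts with Uqcr or is Cyc1 (complex III), starts with Cox4 to Cox8 (complex IV) or starts with Atp5 (complex V). The rule found 86 of 23234 genes: 37 for complex I, 4 for complex II, 9 for complex III, 19 for complex IV and 17 for complex V. The rule uses symbols and no measured value, but it was set with earlier results of these data known. The cells came from the spleen of C57BL/6 mice and were sorted by CD93, a surface protein carried by immature B cells among others. Control mice (CTL) were compared with mice whose genotype is given as Tet2/Tet3-deficient (titled Tet DKO for CD93-negative and Tet KO for CD93-positive cells, DKO below), with 3 libraries in each of 4 groups: each genotype in CD93-negative and in CD93-positive B cells. Tet2 and Tet3 encode enzymes that oxidise 5-methylcytosine in DNA. The alleles, any Cre driver, age, sex and whether replicates are separate animals are not given in the labels, so the tests below compare libraries that may be technical replicates, and their p-values cover that spread alone.

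Complexes I and II pass electrons from NADH and succinate to ubiquinone, complex III passes them on to cytochrome c, and complex IV to oxygen. Complexes I, III and IV pump protons as they work, and complex V, the ATP synthase, uses the gradient to make ATP. Most subunits are encoded in the nucleus, and their genes often carry sites for NRF1, for ETS family factors such as GABP and for YY1 close to the start of transcription. The subunits encoded by mitochondrial DNA were not analysed here. Resting B cells have a low energy demand, and activated B cells and cells that become plasma cells raise oxidative phosphorylation. Some symbols caught by the rule name proteins outside the chain. Atp5sl is an older symbol of Dmac2, a factor for complex I assembly, Atp5s of Dmac2l, and Cox4nb of Emc8, part of a complex of the endoplasmic reticulum membrane. Ndufa4 is counted with complex I by its symbol, although its protein is now known as a complex IV subunit.

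Promoter sequences of the members were searched for letters of known motifs, and none of these was found in most members. In RefSeq's table of promoters for GRCm38.p6, 66 of the 86 symbols were found. The letters searched were the NRF1 consensus, a GC-rich palindrome, CCGGAAG for the ETS family, ATGGCGG for YY1 and GGGCGG for SP/KLF factors, on both strands, in a window of 250 bases before to 50 after the start. Matches to different motifs may overlap. The following windows hold the 150 bases upstream of the start, read 5′ to 3′ on the gene's strand. They belong to the member of each complex with the largest increase among those that passed the test in CD93-negative cells, had a single start in the table and held NRF1 or ETS letters in this window, and lastly to Sdha, which holds NRF1 letters and did not pass. The choice was made after the values were seen, and capitals mark the NRF1, ETS and YY1 letters.
Ndufa8, complex I, chr2:36049339-36049488, minus strand: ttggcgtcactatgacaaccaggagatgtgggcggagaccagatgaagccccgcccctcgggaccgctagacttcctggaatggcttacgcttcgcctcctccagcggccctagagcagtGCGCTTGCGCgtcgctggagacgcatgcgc
Sdhd, complex II, chr9:50603850-50603999, minus strand: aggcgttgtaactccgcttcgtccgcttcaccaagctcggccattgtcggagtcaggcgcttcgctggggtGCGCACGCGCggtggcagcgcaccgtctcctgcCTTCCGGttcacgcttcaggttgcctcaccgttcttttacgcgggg
Uqcr11, complex III, chr10:80406822-80406971, minus strand: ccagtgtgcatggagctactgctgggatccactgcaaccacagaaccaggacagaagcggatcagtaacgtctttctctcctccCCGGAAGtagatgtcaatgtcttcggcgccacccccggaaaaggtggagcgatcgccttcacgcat
Cox6a1, complex IV, chr5:115348959-115349108, minus strand: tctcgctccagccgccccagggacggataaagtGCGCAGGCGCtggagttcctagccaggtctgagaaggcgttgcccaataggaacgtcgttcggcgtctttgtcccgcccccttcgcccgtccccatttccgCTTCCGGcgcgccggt
Atp5e, complex V, chr2:174464102-174464251, minus strand: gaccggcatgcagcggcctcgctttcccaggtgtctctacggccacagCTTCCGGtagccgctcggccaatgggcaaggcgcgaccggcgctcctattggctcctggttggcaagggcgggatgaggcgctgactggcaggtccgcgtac
Sdha, complex II, chr13:74350241-74350390, minus strand: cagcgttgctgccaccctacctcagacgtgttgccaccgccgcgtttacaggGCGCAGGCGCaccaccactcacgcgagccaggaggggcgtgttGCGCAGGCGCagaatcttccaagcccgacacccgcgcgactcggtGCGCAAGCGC
Ndufa8, Sdhd, Cox6a1 and Sdha hold NRF1 letters, and Sdhd, Uqcr11, Cox6a1 and Atp5e hold ETS letters. Over the whole window NRF1 letters were found for 17 of 66 members (25.8%), against 12.4% of 7764 tested genes with a promoter in the table and 5.19% of 27025 symbols in it. ETS letters were found for 24.2%, 22.1% and 9.93%, and YY1 letters for 15.2%, 10.4% and 4.69%. SP/KLF letters were found for 39.4% of members, 68.4% of tested genes and 38.2% of all symbols. The median log2 change in CD93-negative cells was 0.61 for members with NRF1 letters and 0.67 for those without, and 0.66 for members with and without ETS letters. Sdha, with 3 stretches of NRF1 letters, is among the members that moved least, and Ndufa8, with a stretch of the same letters, among those that passed.

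Both tables hold FPKM, fragments scaled by transcript length and by library total, and no counts, so depth is unknown. The sum over all genes ran from 342368 to 463987 FPKM in CD93-negative libraries. In CD93-positive libraries it was 309359 for DKO replicate 3, against 523898 to 597968 for the other 5, and that library listed 5.71% of genes at 0, against 17.4% to 35.5%. The Y-linked gene Ddx3y was above Xist in all CD93-negative libraries and in control replicates 1 and 2 of CD93-positive cells, and Xist was above Ddx3y in the other 4, so sex differs between these groups. The 8 B cell markers summed to 2894 to 3580 FPKM in CD93-negative controls and 3141 to 3291 FPKM in DKO libraries. In CD93-positive cells they summed to 3227 to 4219 FPKM in the controls and 1503 to 3141 FPKM in DKO libraries, with no overlap. The CD93-positive libraries also held RNA of red cells and neutrophils: globin genes took 10.6%, 10.3% and 2.61% of the sum in the controls and 2.28%, 2.63% and 1.04% in DKO libraries. The neutrophil markers summed to 1525 to 2135 FPKM in the controls and 427 to 1355 FPKM in DKO libraries. In CD93-negative libraries globin genes took 0.0114% to 0.0149% in the controls and 0.0385% to 0.0429% in DKO libraries. Cd93 was at 3.88, 4.65 and 4.49 FPKM in the controls and 3.85, 3.68 and 3.32 FPKM in the DKO libraries for CD93-negative cells, and at 50.9, 50.9 and 59.9 FPKM in the controls and 50.5, 43.1 and 28 FPKM in the DKO libraries for CD93-positive cells. Tet2 and Tet3 did not pass the test with the authors' scaling in either population. After the rescaling described below Tet3 passed downward in CD93-negative (log2 change -0.41, SE 0.06, adjusted p = 0.00180) and CD93-positive cells (log2 change -0.66, SE 0.12, adjusted p = 0.0150), and Tet2 did not (log2 change 0.02, SE 0.09, adjusted p = 0.858 and log2 change -0.11, SE 0.16, adjusted p = 0.638). A value over a whole gene includes exons outside a deletion, so neither checks the labels.

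In CD93-negative B cells, genes for all 5 complexes were higher in DKO libraries. Of 86 members, 81 reached 1 FPKM in at least 3 of the 6 libraries and were tested, and Ndufa4l2, Cox4i2, Cox7b2, Cox8b and Cox8c did not. With the authors' scaling, 63 of the 81 passed the test upward and 0 downward, where 18.7% of the 10960 genes tested passed upward and 2.79% downward. Tests were made with limma on log2(FPKM + 1), which understates changes of low genes, with Benjamini-Hochberg adjustment over all genes and a threshold of 0.05. At an unadjusted p under 0.05 the counts were 71 and 0. In 67 members every DKO library lay above every control library, against 31.5% of all genes, and in 0 below, against 7.43%. The median log2 change was 0.64 for the members and 0.11 for all genes.

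The DKO libraries also had the higher FPKM sums and upper quartiles, so a second fit gave all libraries the same upper quartile over the genes tested. Then 56 members passed upward, all of them among the 63, against 17.1% of all genes, and 1 downward, Atp5sl, against 23.8%. Groups did not overlap for 60 members upward, against 21.4% of all genes, and for Atp5sl downward, against 33.3%. The median log2 change was then 0.42 for the members and -0.08 for all genes. Without DKO replicate 3, 40 of 80 tested members passed upward with the authors' scaling, and 1180 of 10734 genes.

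**Figure D1:**
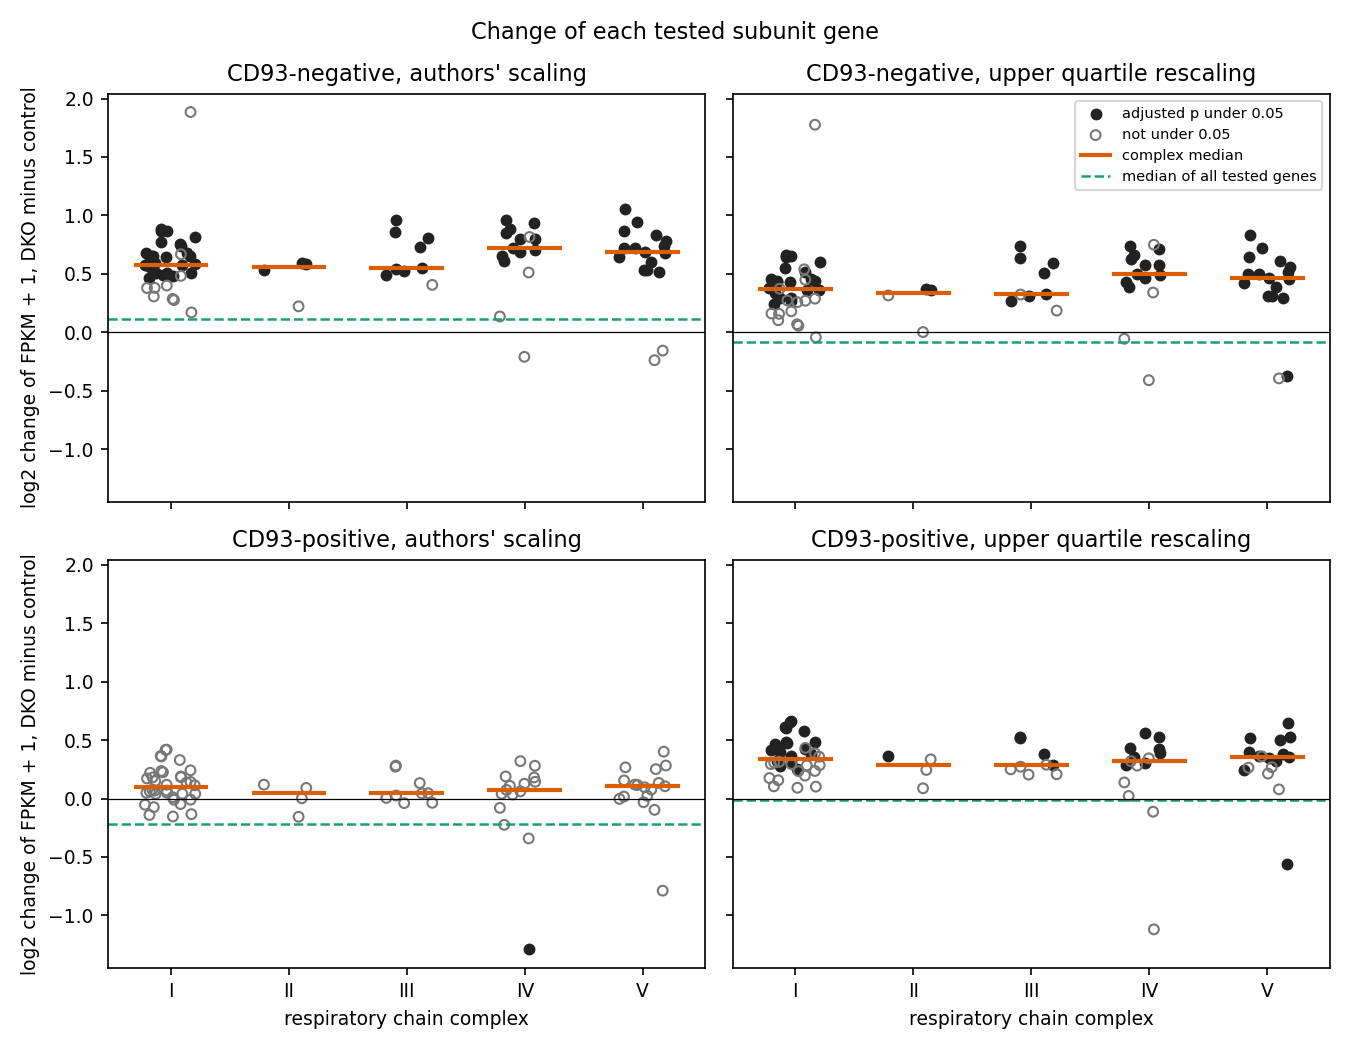
Log2 change of each tested member (DKO minus control, on log2(FPKM + 1)), by complex, for CD93-negative cells above and CD93-positive cells below, with the authors' scaling on the left and upper quartile rescaling on the right; filled points passed the limma test and the dashed line is the median of all tested genes. In CD93-negative cells most points lie above that line with either scaling, and in CD93-positive cells filled points above 0 appear only on the right; the highest open point is Ndufs5, which is listed near 0 in a control library.

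Complex I, the NADH dehydrogenase, had 26 of 36 tested members that passed upward, and 21 after rescaling, against 18.7% and 17.1% of all genes. Ndufv3, an accessory subunit near the NADH site, was at 34, 35.4 and 29.8 FPKM in the controls and 54.6, 57.1 and 75.1 FPKM in the DKO libraries, with every DKO library above every control (log2 change 0.88, SE 0.15, adjusted p = 0.00114). Ndufa1, needed for assembly of the membrane arm, was at 31.4, 37.4 and 30.3 FPKM in the controls and 54.4, 73.6 and 56.5 FPKM in the DKO libraries (log2 change 0.87, SE 0.15, adjusted p = 0.00132). Ndufb9, of the distal membrane arm, was at 24.3, 33.8 and 39.3 FPKM in the controls and 54.7, 57.1 and 65.1 FPKM in the DKO libraries (log2 change 0.86, SE 0.17, adjusted p = 0.00305). These 3 accessory genes were picked for the largest increases. In them the lowest DKO library lay above the highest control, as it did in 31.5% of all genes.

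The named core subunits of complex I had log2 changes from 0.17 to 0.58 in CD93-negative cells. Ndufs8, which holds iron-sulfur clusters, was at 29.7, 45.2 and 36.3 FPKM in the controls and 56.7, 52.4 and 56.6 FPKM in the DKO libraries (log2 change 0.58, SE 0.15, adjusted p = 0.0171). Ndufs7, which holds the last cluster before ubiquinone, was at 48.2, 63.4 and 53.8 FPKM in the controls and 64, 76.3 and 78.4 FPKM in the DKO libraries and did not pass, although its groups did not overlap (log2 change 0.40, SE 0.14, adjusted p = 0.0668). Ndufv1, which binds NADH and FMN, was at 25.2, 37 and 31.5 FPKM in the controls and 36.4, 38.3 and 39 FPKM in the DKO libraries, with overlapping groups (log2 change 0.29, SE 0.15, adjusted p = 0.202). Ndufs1, the largest core subunit, was at 17.1, 22.7 and 20.3 FPKM in the controls and 23.1, 20.3 and 24.4 FPKM in the DKO libraries, also with overlap (log2 change 0.17, SE 0.14, adjusted p = 0.446). Rescaling gave log2 changes of 0.07 for Ndufv1 and -0.04 for Ndufs1. Ndufs5 was listed at 0.002, 19.9 and 24.8 FPKM in the controls and at 15.7, 38.9 and 39.7 FPKM in DKO libraries. A first value so near 0 can be a failed estimate, so no mean is given.

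Complex II, succinate dehydrogenase, had 3 of 4 members that passed upward, and 2 after rescaling, against 18.7% and 17.1% of all genes. Differences between its subunits were not tested. Sdhb, which carries the iron-sulfur clusters, was at 39.8, 43.2 and 47.4 FPKM in the controls and 58.3, 67.5 and 71.5 FPKM in the DKO libraries (log2 change 0.58, SE 0.13, adjusted p = 0.00787). The membrane anchor Sdhc was at 17.1, 22.2 and 22.6 FPKM in the controls and 24.9, 29.6 and 36.6 FPKM in the DKO libraries (log2 change 0.53, SE 0.16, adjusted p = 0.0366). The other anchor, Sdhd, was at 18.5, 29.8 and 28.6 FPKM in the controls and 35, 39.5 and 40.4 FPKM in the DKO libraries (log2 change 0.59, SE 0.17, adjusted p = 0.0282). The flavoprotein Sdha, which oxidises succinate, was at 50.9, 66.7 and 61.2 FPKM in the controls and 66.7, 70.3 and 70.9 FPKM in the DKO libraries, with a DKO library level with a control, and did not pass (log2 change 0.22, SE 0.13, adjusted p = 0.282). After rescaling Sdhb and Sdhd passed, and the log2 change was 0.32 for Sdhc (adjusted p = 0.0661, range 0.00365 to 0.192 across the settings tried) and 0.00 for Sdha.

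Complex III, the cytochrome bc1 complex, had 8 of 9 members that passed upward, and 7 after rescaling, against 18.7% and 17.1% of all genes. Uqcrq, a small subunit that binds near cytochrome b, was at 55.5, 67.2 and 60.6 FPKM in the controls and 98.4, 129 and 135 FPKM in the DKO libraries (log2 change 0.96, SE 0.15, adjusted p = 0.000688), a 1.97-fold ratio of means. Uqcr11 was at 39.9, 57.3 and 58.4 FPKM in the controls and 75.7, 102 and 106 FPKM in the DKO libraries (log2 change 0.86, SE 0.18, adjusted p = 0.00436), and its promoter is shown above with ETS letters. Uqcrfs1, the Rieske iron-sulfur protein, was at 25.2, 36 and 30.8 FPKM in the controls and 51.8, 54.6 and 55.4 FPKM in the DKO libraries (log2 change 0.81, SE 0.14, adjusted p = 0.00168). Uqcrc1, a core protein, was at 41.7, 56.1 and 49.8 FPKM in the controls and 67, 64.7 and 75.9 FPKM in the DKO libraries (log2 change 0.49, SE 0.14, adjusted p = 0.0268). In none of these 4 did the groups overlap, and 31.5% of all genes were likewise higher without overlap. Uqcrq, Uqcr11 and Uqcrfs1 were picked for the largest increases. Cyc1, the cytochrome c1 that hands electrons to cytochrome c, was at 49, 58.3 and 43.2 FPKM in the controls and 67.2, 62.9 and 68.9 FPKM in the DKO libraries and did not pass, with groups that did not overlap (log2 change 0.41, SE 0.14, adjusted p = 0.0546).

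Complex IV, cytochrome c oxidase, had 11 of 15 tested members that passed upward with either scaling, against 18.7% and 17.1% of all genes. Cox4i1, a regulatory subunit that binds ATP, was at 167, 207 and 178 FPKM in the controls and 325, 358 and 393 FPKM in the DKO libraries; its mean went from 184 ± 20.6 to 359 ± 33.8 FPKM (SD, n = 3; log2 change 0.96, SE 0.14, adjusted p = 0.000444). Cox5a was at 55.5, 65 and 57.9 FPKM in the controls and 95.5, 115 and 136 FPKM in the DKO libraries (log2 change 0.94, SE 0.15, adjusted p = 0.000824). Cox5b, which binds zinc, was at 84.4, 104 and 81 FPKM in the controls and 149, 180.2 and 170.3 FPKM in the DKO libraries (log2 change 0.89, SE 0.14, adjusted p = 0.000852). Cox4i1, Cox5a and Cox5b had the largest increases among the members of this complex that passed. For each of the 3 the lowest DKO library was above the highest control, as in 31.5% of all genes. The 4 tested members that did not pass were Cox4nb, which is no subunit, and Cox6a2, Cox6b2 and Cox7a1, isoforms of other tissues taken up below.

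Complex V had 15 of 17 members that passed upward with either scaling, against 18.7% and 17.1% of all genes. The remaining ones were Atp5s and Atp5sl, neither of them a subunit in today's naming. Atp5j2, subunit f of the membrane part, was at 59.9, 91 and 62.9 FPKM in the controls and 133, 158 and 149 FPKM in the DKO libraries (log2 change 1.05, SE 0.16, adjusted p = 0.000741), the largest increase among the members that passed. Atp5j, coupling factor 6 of the stalk, was at 37.1, 46.3 and 48.5 FPKM in the controls and 83.6, 81.8 and 89.6 FPKM in the DKO libraries (log2 change 0.94, SE 0.14, adjusted p = 0.000404). The catalytic subunit beta, Atp5b, was at 151, 208 and 189 FPKM in the controls and 276, 304 and 298 FPKM in the DKO libraries (log2 change 0.69, SE 0.15, adjusted p = 0.00511). Subunit alpha, Atp5a1, was at 123, 154 and 145 FPKM in the controls and 211, 217 and 232 FPKM in the DKO libraries (log2 change 0.65, SE 0.13, adjusted p = 0.00453). No control library reached a DKO library in any of the 4, as in 31.5% of all genes. Atp5j2 and Atp5j were picked for their increases. Atp5sl was at 38.3, 44.8 and 39.5 FPKM in the controls and 34.4, 36.7 and 38.5 FPKM in the DKO libraries; it did not pass with the authors' scaling (log2 change -0.16, SE 0.13, adjusted p = 0.432) and passed downward after rescaling (log2 change -0.37, SE 0.07, adjusted p = 0.00602; it lies outside the rule for named genes and was named after its values were seen).

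In CD93-positive B cells the outcome depended on the scaling. With the authors' scaling 0 of 81 members passed upward, against 1.67% of 11250 genes, and 1 downward, Cox7a1, against 1.54%. On simulated data this fit recovered 0% of log2 changes of 0.5 and 4% of changes of 1. The count of 0 therefore does not show a lack of change. At an unadjusted p under 0.05 the counts were 0 and 2. Groups overlapped for all members but 2 that were lower, Cox7a1 and Atp5sl, where 2.94% of all genes were higher and 19% lower without overlap. The median log2 change was 0.08 for the members and -0.22 for all genes. DKO replicate 3, with the low FPKM sum, had the lowest value of the 6 libraries for 75 of the 81 members. Without it 3 members passed upward, Ndufa5, Ndufv3 and Atp5g1, where 4.38% of 11107 genes did, so this count is no result about the members. Groups did not overlap upward for 64 members and for 2763 of all genes, and the median log2 change was 0.41 for the members and 0.01 for all genes.

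After upper quartile rescaling 43 members passed upward, against 11.4% of all genes, and 1 downward, again Atp5sl, against 9.34%. Groups did not overlap for 66 members upward, against 20.9%, and for 2 downward, against 22%. The median log2 change was 0.32 for the members and -0.01 for all genes. By complex, 19 of 36 passed for I, 1 of 4 for II (Sdhc), 4 of 9 for III, 8 of 15 for IV and 11 of 17 for V. The count of 43 was not stable: with 1 library left out it ran from 10 (without control replicate 1) to 45 (without control replicate 3), and was 16 without control replicate 2, 21, 14 and 29 without DKO replicates 1, 2 and 3. The share of all genes that passed upward moved as well, from 5.23% (without control replicate 2) to 10.8% (without control replicate 3). It was 5.24% without control replicate 1. The members' median log2 change in these fits ran from 0.28 to 0.37. With sex as a covariate 2 of 81 members passed upward, where 3.54% of all genes did, with a median of 0.24, and the sexes were unevenly spread over the groups as given above. Of 8 red cell markers 6 passed downward with the authors' scaling and 0 after rescaling, with sums of 15126 to 64439 FPKM in the controls and 3323 to 15716 FPKM in DKO libraries. Of 6 neutrophil markers 0 passed and 4 passed downward after rescaling. Of 8 B cell markers 1 passed downward, and 5 after rescaling. Of all genes 1.54% passed downward, and 9.34% after rescaling. The part of these cells, of the B cell markers and of sex in the result was not tested. With libraries scaled to the same sum without globin genes, 24 members passed upward, against 7.65% of all genes.

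**Figure D2:**
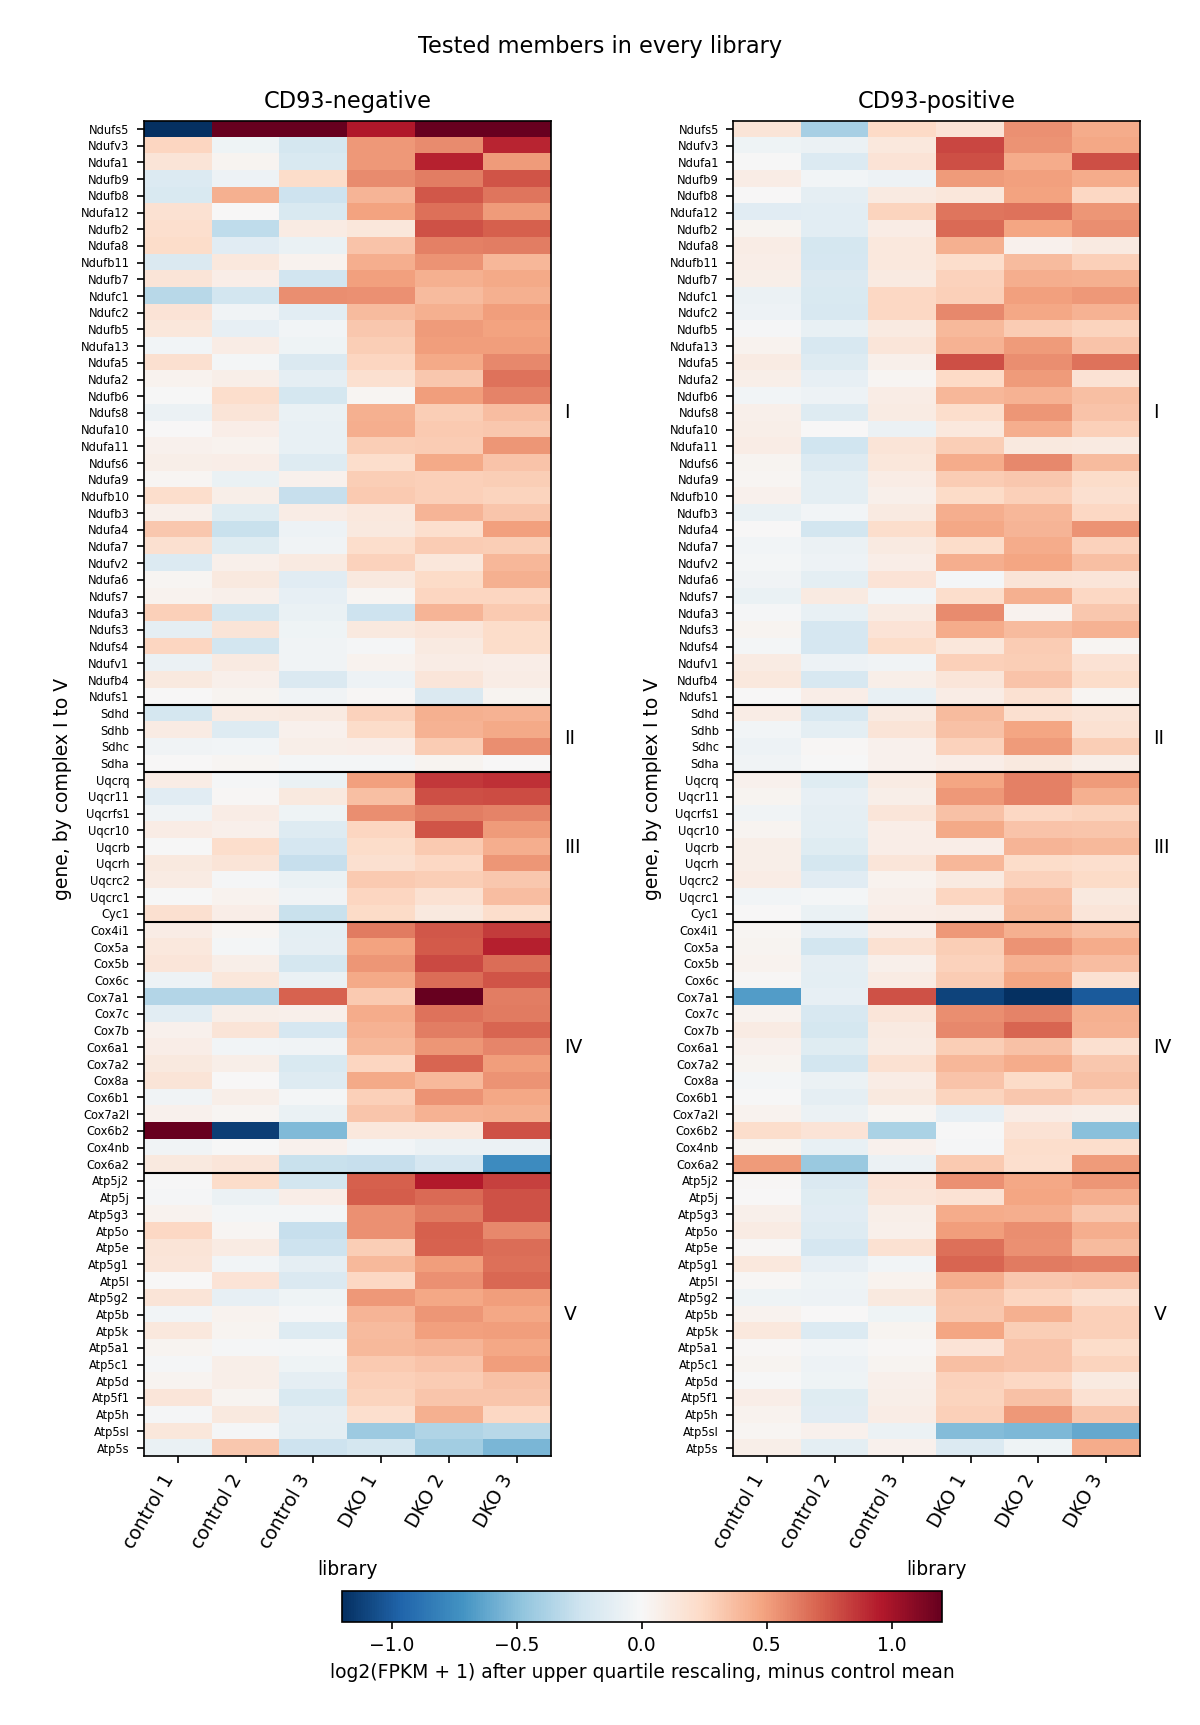
The tested members but 1 in each library, as log2(FPKM + 1) after upper quartile rescaling minus the mean of the 3 controls, with genes in rows by complex and CD93-negative libraries on the left, CD93-positive on the right; colours end at 1.2 in either direction. Most rows are red in all 3 DKO libraries of either population, Atp5sl is blue in both, and Ndufs5 in CD93-negative cells reflects a control library listed near 0.

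Rescaled values of single genes show the pattern in CD93-positive cells. Atp5g1, a gene for the membrane ring subunit c, was at 84.7, 72.4 and 75.6 FPKM in the controls and 127, 120.1 and 118 FPKM in the DKO libraries after rescaling (log2 change 0.65, SE 0.08, adjusted p = 0.00352, range 0.00352 to 1.0 across the settings tried). Uqcrq was at 224, 196 and 232 FPKM in the controls and 300.2, 330.0 and 309 FPKM in the DKO libraries (log2 change 0.53, SE 0.08, adjusted p = 0.00960, range 0.00817 to 1.0 across the settings tried). Cox4i1 was at 472, 436 and 491 FPKM in the controls and 669, 628 and 597 FPKM in the DKO libraries (log2 change 0.44, SE 0.08, adjusted p = 0.0139, range 0.0139 to 1.0 across the settings tried). In each of the 3 genes all DKO libraries were above all controls, as in 20.9% of all genes after rescaling. Without rescaling Atp5g1 was at 93.3, 72.7 and 88.5 FPKM in the controls and 147, 134 and 70.9 FPKM in the DKO libraries. Uqcrq was at 247, 196 and 271 FPKM in the controls and 348, 368 and 185 FPKM in the DKO libraries, and Cox4i1 at 520.2, 438 and 575 FPKM in the controls and 775, 699.7 and 357 FPKM in the DKO libraries. DKO replicate 3 was the lowest library for these 3 genes with that scaling.

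Ndufa1 was at 84.1, 74.9 and 94.4 FPKM in the controls and 144, 115 and 144 FPKM in the DKO libraries after rescaling (log2 change 0.66, SE 0.12, adjusted p = 0.0149, range 0.0132 to 1.0 across the settings tried). Atp5b was at 410.4, 400.4 and 385 FPKM in the controls and 498, 534 and 487 FPKM in the DKO libraries (log2 change 0.34, SE 0.07, adjusted p = 0.0176, range 0.0176 to 1.0 across the settings tried). Ndufv1 passed narrowly here (log2 change 0.25, SE 0.07, adjusted p = 0.0494, range 0.0494 to 1.0 across the settings tried). Sdha and Ndufs1 had rescaled log2 changes of 0.09 and 0.10 and did not pass. Atp5sl was at 23.2, 23.7 and 21.7 FPKM in the controls and 15.6, 15.4 and 14.6 FPKM in the DKO libraries after rescaling, every DKO library below every control (log2 change -0.56, SE 0.07, adjusted p = 0.00456). With sex as a covariate its log2 change was -0.48 (adjusted p = 0.0512).

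The comparisons share no library. After rescaling, 36 members passed upward in both, which is 64.3% of the 56 in CD93-negative and 83.7% of the 43 in CD93-positive cells. As 69.1% and 53.1% of the 81 members passed in these populations, a large overlap follows from those counts alone. The share of all genes that passed in both was not counted, so the overlap is no result about the members. Across the 81 members Pearson's r between the log2 changes of both populations was 0.31 after rescaling and 0.35 before; genes share their libraries and are not replicates. Whether the changes differ between the populations was not tested, since the tables were scaled separately.

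The share of the library taken by the members does not depend on a scaling factor of the library. In CD93-negative cells the 86 members made up 1.26%, 1.39% and 1.31% of the FPKM sum in the controls and 1.65%, 1.76% and 1.79% in DKO libraries. In CD93-positive cells they made up 2.03%, 1.90% and 2.37% in the controls and 2.69%, 2.70% and 2.60% in DKO libraries. Every DKO library was above every control in either population, DKO replicate 3 included. Leaving out globin genes, the CD93-positive shares were 2.27%, 2.12% and 2.43% in the controls and 2.76%, 2.78% and 2.62% in DKO libraries. With 3 libraries against 3 an exact permutation test cannot go below p = 0.10, so no p is given.

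**Figure D3:**
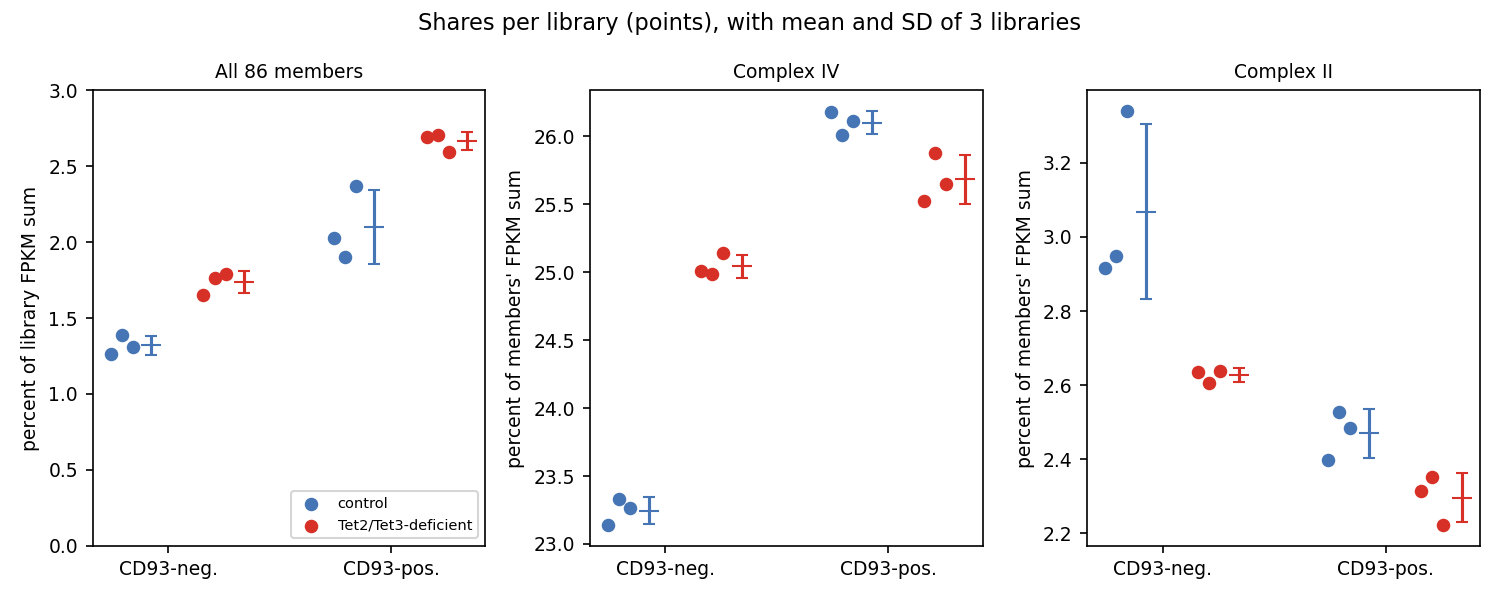
Share of the 86 members in the FPKM sum of each library (left), and shares of complex IV (middle) and complex II (right) in the FPKM sum of the members; points are libraries, and bars mark the mean and SD of 3 libraries per group. The left axis starts at 0 and the others do not; the DKO libraries lie higher on the left, lower for complex II, and for complex IV higher in CD93-negative and lower in CD93-positive cells.

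Among the members themselves the balance of complexes moved a little. In CD93-negative cells complex I took 30.2% ± 0.667 of the members' FPKM in the controls and 28.2% ± 0.207 in DKO libraries (SD, n = 3), and complex II 3.07% ± 0.235 against 2.63% ± 0.0180. Complex IV took 23.2% ± 0.0970 against 25.0% ± 0.0846. For these 3 complexes the groups did not overlap, and for complexes III and V they did. In CD93-positive cells complex II took 2.47% ± 0.0664 against 2.30% ± 0.0664, and complex IV 26.1% ± 0.0855 against 25.7% ± 0.181, both lower in every DKO library, while complexes I, III and V overlapped. The share of complex II was thus lower in DKO libraries of both populations, and that of complex IV moved in opposite directions.

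FPKM is scaled by length, so levels can be set side by side within a table. In CD93-negative controls the median of the tested members' mean FPKM was 33.8 for complex I, 34.6 for II, 51.9 for III, 89.8 for IV and 90.6 for V. In CD93-positive controls it was 90.9, 74.3, 125, 257 and 244 FPKM, so complexes IV and V had the higher medians in both tables. Atp5e, the small epsilon subunit of the ATP synthase, had the highest mean among members in CD93-negative controls (216 ± 34.1 FPKM, n = 3), and Cox4i1 in CD93-positive controls (511 ± 68.9 FPKM). The members' transcripts are short, with a median length of 659 bases in GENCODE M21 for 79 of the 81.

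Several complex IV subunits have tissue isoforms, and the isoforms of other tissues stood lower than the ubiquitous genes in each set. Cox6a1 was at 154, 185 and 173 FPKM in the controls and 257, 286 and 306 FPKM in the DKO libraries in CD93-negative cells (log2 change 0.72, SE 0.14, adjusted p = 0.00237). Its muscle isoform Cox6a2 was at 9.12, 12 and 8.32 FPKM in the controls and 9.0, 9.70 and 6.44 FPKM in the DKO libraries, which did not pass (log2 change -0.21, SE 0.17, adjusted p = 0.449). Cox6b1 was at 91.7, 128 and 114 FPKM in the controls and 154, 186 and 182 FPKM in the DKO libraries (log2 change 0.65, SE 0.15, adjusted p = 0.00908). Its testis isoform Cox6b2 was at 4.66, 0 and 0.496 FPKM in the controls and 1.47, 1.49 and 2.99 FPKM in the DKO libraries (log2 change 0.51, SE 0.48, adjusted p = 0.502), and in CD93-positive cells at 30.7, 27 and 21.3 FPKM in the controls and 27.6, 30.1 and 9.92 FPKM in the DKO libraries (log2 change -0.34, SE 0.38, adjusted p = 0.758). The 2 tables were scaled separately, and the levels of Cox6b2 are given side by side for that reason with no test.

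Cox7a2 was at 29.1, 36.7 and 28.8 FPKM in the controls and 43.2, 59.7 and 53.6 FPKM in the DKO libraries in CD93-negative cells (log2 change 0.71, SE 0.15, adjusted p = 0.00601). Cox7a2l is a gene linked to supercomplexes of complexes III and IV, a role not examined here. It was at 104, 132 and 117 FPKM in the controls and 169, 182 and 188 FPKM in the DKO libraries there. Its log2 change was 0.61 (SE 0.13, adjusted p = 0.00644). In CD93-positive cells its rescaled log2 change was 0.02 (adjusted p = 0.857, range 0.214 to 1.0 across the settings tried). The muscle isoform Cox7a1 was at 0, 0 and 1.05 FPKM in the controls and 0.627, 2.35 and 1.05 FPKM in the DKO libraries in CD93-negative cells. In CD93-positive cells Cox7a1 was at 2.77, 4.23 and 9.90 FPKM in the controls and 1.84, 1.51 and 1.06 FPKM in the DKO libraries, with every DKO library below every control, and passed downward with the authors' scaling (log2 change -1.29, SE 0.29, adjusted p = 0.000440). After rescaling it did not pass (log2 change -1.12, SE 0.34, adjusted p = 0.0614, range 0.000112 to 0.605 across the settings tried); its control values are spread widely.

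Cox8a was at 119, 139.8 and 118 FPKM in the controls and 197, 191 and 218 FPKM in the DKO libraries in CD93-negative cells (log2 change 0.68, SE 0.13, adjusted p = 0.00289), while the testis isoform Cox8c and the lung isoform Cox4i2 stayed under 1 FPKM in both tables. The muscle isoform Cox8b reached 2.15 FPKM in control replicate 3 of CD93-negative cells and was under 1 FPKM in the other libraries. The 3 genes for the same mature subunit c of ATP synthase rose together in CD93-negative cells: Atp5g1 from 33.2 ± 2.50 to 56.1 ± 6.62 FPKM, Atp5g2 from 145 ± 6.22 to 239 ± 6.97 FPKM and Atp5g3 from 113 ± 12.3 to 207 ± 20.3 FPKM (SD, n = 3), with log2 changes of 0.74, 0.72 and 0.87 and adjusted p-values of 0.00190, 0.00132 and 0.000835. Ndufa4 was at 99.3, 84.7 and 93.1 FPKM in the controls and 115, 124 and 156 FPKM in the DKO libraries (log2 change 0.49, SE 0.15, adjusted p = 0.0292) and did not pass after rescaling (log2 change 0.27, adjusted p = 0.215, range 0.00655 to 0.497 across the settings tried). Ndufa4l2, its hypoxia-induced relative, was at 0 in every CD93-negative library.

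**Figure D4:**
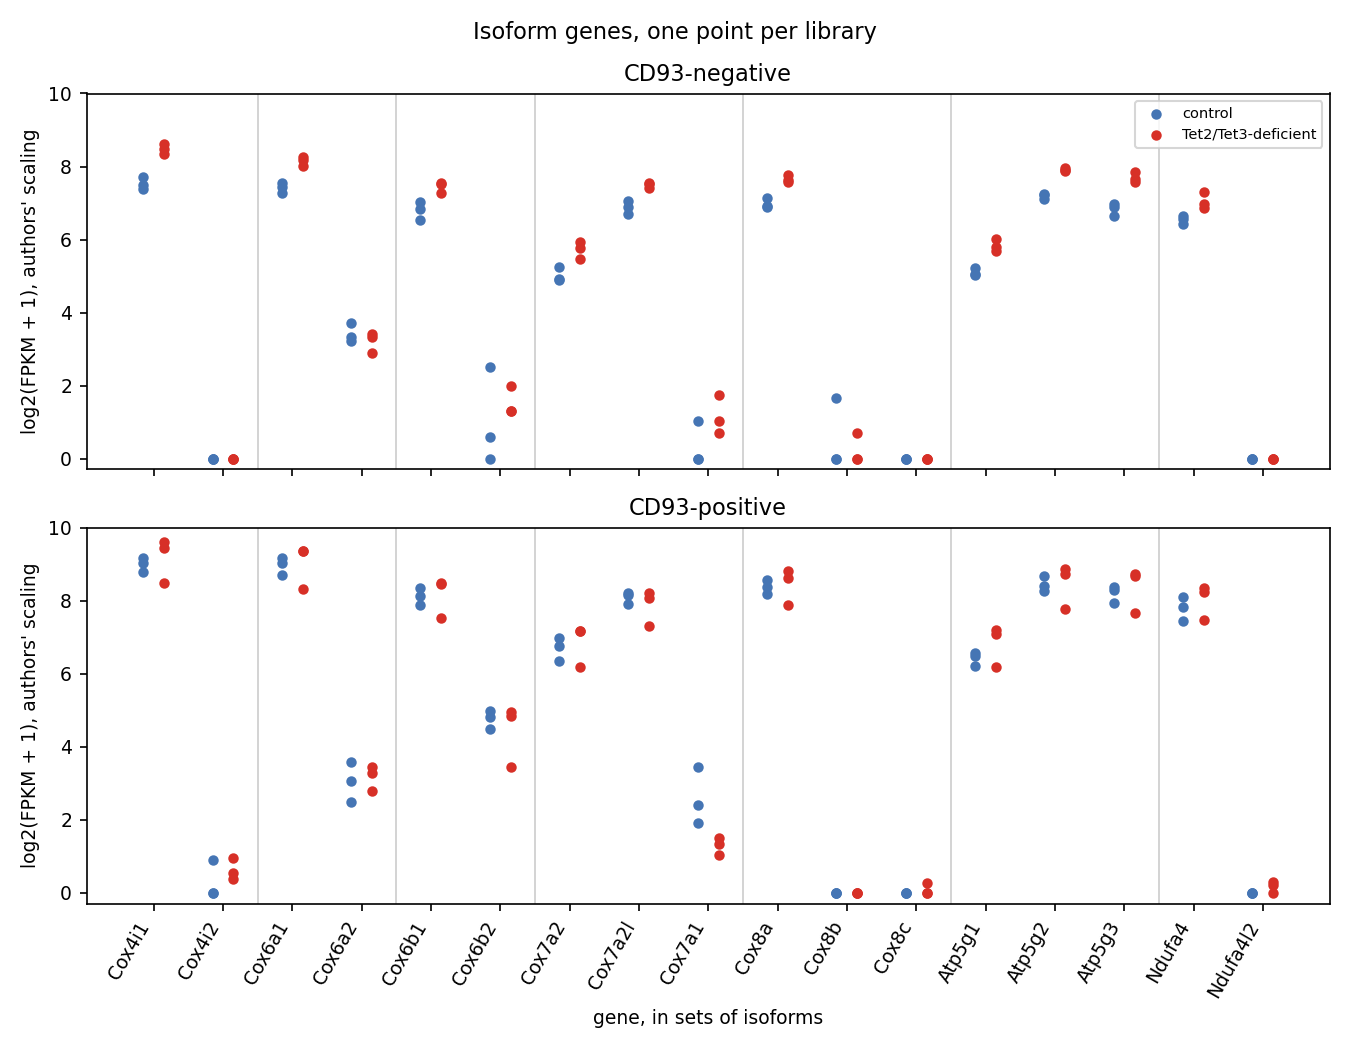
Log2(FPKM + 1) with the authors' scaling for genes of the isoform sets, one point per library, for CD93-negative cells above and CD93-positive cells below; vertical lines part the sets. The isoforms of other tissues lie below the ubiquitous genes, Cox4i2, Cox8c and Ndufa4l2 lie under 1 FPKM in every library, Cox8b reaches 2.15 FPKM in 1 CD93-negative control, and Cox6b2 lies higher in CD93-positive libraries than its values of 0 to 4.66 FPKM in CD93-negative ones.

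Genes related to the chain but outside the symbol rule were counted in the same fits, and some of their proteins sit in its complexes. In CD93-negative cells 18.7% of all genes passed upward and 2.79% downward, and 17.1% and 23.8% after rescaling. Of 21 tested carriers and regulators, 14 passed upward and 0 downward in CD93-negative cells, and 12 and 0 after rescaling. They include Usmg5, which holds ATP synthase dimers (71, 87.3 and 90.3 FPKM in the controls and 146, 156 and 158 FPKM in the DKO libraries; log2 change 0.89, SE 0.13, adjusted p = 0.000589), Slc25a4, an ADP/ATP carrier (41.2, 54.6 and 48.1 FPKM in the controls and 77.9, 87.9 and 94.4 FPKM in the DKO libraries; log2 change 0.85, SE 0.14, adjusted p = 0.00116), and Atpif1, the inhibitor of ATP synthase (15.9, 30.5 and 29.3 FPKM in the controls and 35.4, 45.2 and 46.2 FPKM in the DKO libraries; log2 change 0.77, SE 0.21, adjusted p = 0.0232). Ndufab1, the acyl carrier protein that also sits in complex I, did not pass (log2 change 0.33, SE 0.16, adjusted p = 0.163). Of 18 TCA cycle genes 6 passed upward and 0 downward, and 6 and 1 after rescaling. Upward that is 33.3% with either scaling, against 18.7% and 17.1% of all genes. Idh3a was at 7.47, 10.1 and 10.1 FPKM in the controls and 15.6, 16.2 and 16.3 FPKM in the DKO libraries (log2 change 0.75, SE 0.14, adjusted p = 0.00248). Mdh2 was at 49.9, 65.1 and 67.2 FPKM in the controls and 98.2, 99.4 and 108 FPKM in the DKO libraries (log2 change 0.74, SE 0.14, adjusted p = 0.00266).

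Assembly factors gave few calls. Of 29 tested, 2 passed upward in CD93-negative cells, Cox17 and Tmem70, and 1 downward, Cox18, against 63 of 81 subunit genes. After rescaling 2 passed in each direction. Of all genes 18.7% passed upward and 2.79% downward, and 17.1% and 23.8% after rescaling. The upward share of assembly factors, 6.90% with either scaling, was under that of all genes. Their median log2 change was 0.24 with the authors' scaling, against 0.11 for all genes. Cox17, the copper chaperone of complex IV, was at 48.4, 55.4 and 60.6 FPKM in the controls and 77, 99.8 and 95.5 FPKM in the DKO libraries (log2 change 0.71, SE 0.14, adjusted p = 0.00382). Cox18, which inserts a subunit into the membrane, was at 8.64, 10.6 and 10.9 FPKM in the controls and 7.20, 4.44 and 6.90 FPKM in the DKO libraries (log2 change -0.64, SE 0.17, adjusted p = 0.0195). Of 18 electron carriers and ubiquinone genes 2 passed upward and 1 downward, and 1 and 2 after rescaling. Their upward shares, 11.1% and 5.56% after rescaling, were under those of all genes, 18.7% and 17.1%. Cycs, cytochrome c, was at 12.4, 11.3 and 10.6 FPKM in the controls and 16, 16.6 and 20.4 FPKM in the DKO libraries (log2 change 0.58, SE 0.14, adjusted p = 0.00962), and did not pass after rescaling (log2 change 0.37, adjusted p = 0.0800, range 0.00171 to 0.211 across the settings tried). Adck3, a kinase-like protein of ubiquinone synthesis, fell from 13.9 ± 1.39 to 8.22 ± 0.975 FPKM (SD, n = 3; log2 change -0.69, SE 0.14, adjusted p = 0.00361).

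Regulators of mitochondrial biogenesis gave 2 that passed upward of 19 tested in CD93-negative cells, Myc (24.7, 28.5 and 29.1 FPKM in the controls and 39.1, 40.2 and 39.8 FPKM in the DKO libraries; log2 change 0.52, SE 0.12, adjusted p = 0.0102) and Hif1a (15.6, 20.7 and 19.1 FPKM in the controls and 26.3, 27.2 and 26.5 FPKM in the DKO libraries; log2 change 0.52, SE 0.13, adjusted p = 0.0163), and 0 downward. With the authors' scaling 18.7% of all genes passed upward and 2.79% downward. After rescaling Myc and Hif1a again passed upward and 6 downward, among them Nrf1. There 17.1% of all genes passed upward and 23.8% downward, so these counts lie near those of all genes. Nrf1 was at 12.7, 16.6 and 14.6 FPKM in the controls and 14.3, 14.9 and 15 FPKM in the DKO libraries (log2 change 0.01, and -0.19 after rescaling). Gabpa, the ETS factor of GABP, was at 11.3, 14.6 and 14.5 FPKM in the controls and 14.2, 15.5 and 15.7 FPKM in the DKO libraries (log2 change 0.16, SE 0.14, adjusted p = 0.460). Tfam, which packages mitochondrial DNA, was at 13.6, 17.6 and 16 FPKM in the controls and 15.8, 17 and 16.1 FPKM in the DKO libraries (log2 change 0.06, SE 0.13, adjusted p = 0.820). These 3 were picked for their known roles and lie outside the rule for named genes. Ppargc1a, the coactivator PGC-1alpha, stayed at or under 0.524 FPKM in CD93-negative libraries and was not tested.

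Genes for ribosomes, protein import and the proteasome were also higher in CD93-negative DKO libraries. Mitochondrial ribosome genes passed upward in 34 of 76, mitochondrial import genes in 10 of 20, cytosolic ribosome genes in 70 of 80 and proteasome genes in 28 of 38, with 0 downward in each. Of all genes 18.7% passed upward and 2.79% downward. After rescaling the counts were 21, 8, 60 and 28, with 1 proteasome gene downward, against 17.1% of all genes upward and 23.8% downward. Examples are Mrpl18 (log2 change 0.85, SE 0.15, adjusted p = 0.00175), Mrpl54 (log2 change 0.85, SE 0.14, adjusted p = 0.000982), Tomm7 (log2 change 0.80, SE 0.17, adjusted p = 0.00454), Timm23 (log2 change 0.80, SE 0.14, adjusted p = 0.00143), and the immunoproteasome subunits Psmb9 (64.7, 89.9 and 74.1 FPKM in the controls and 229, 228 and 249 FPKM in the DKO libraries; log2 change 1.63, SE 0.14, adjusted p = 9.05e-06) and Psmb10 (log2 change 0.92, SE 0.14, adjusted p = 0.000474). Rps27 was at 11.1, 15.9 and 10.7 FPKM in the controls and 356, 409 and 12.1 FPKM in the DKO libraries and Rpl26 at 0.00169, 7.29 and 0.00144 FPKM in the controls and 10.3, 9.98 and 17.4 FPKM in the DKO libraries; ribosomal protein genes have near-identical pseudogenes, and these values are uncertain.

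**Figure D5:**
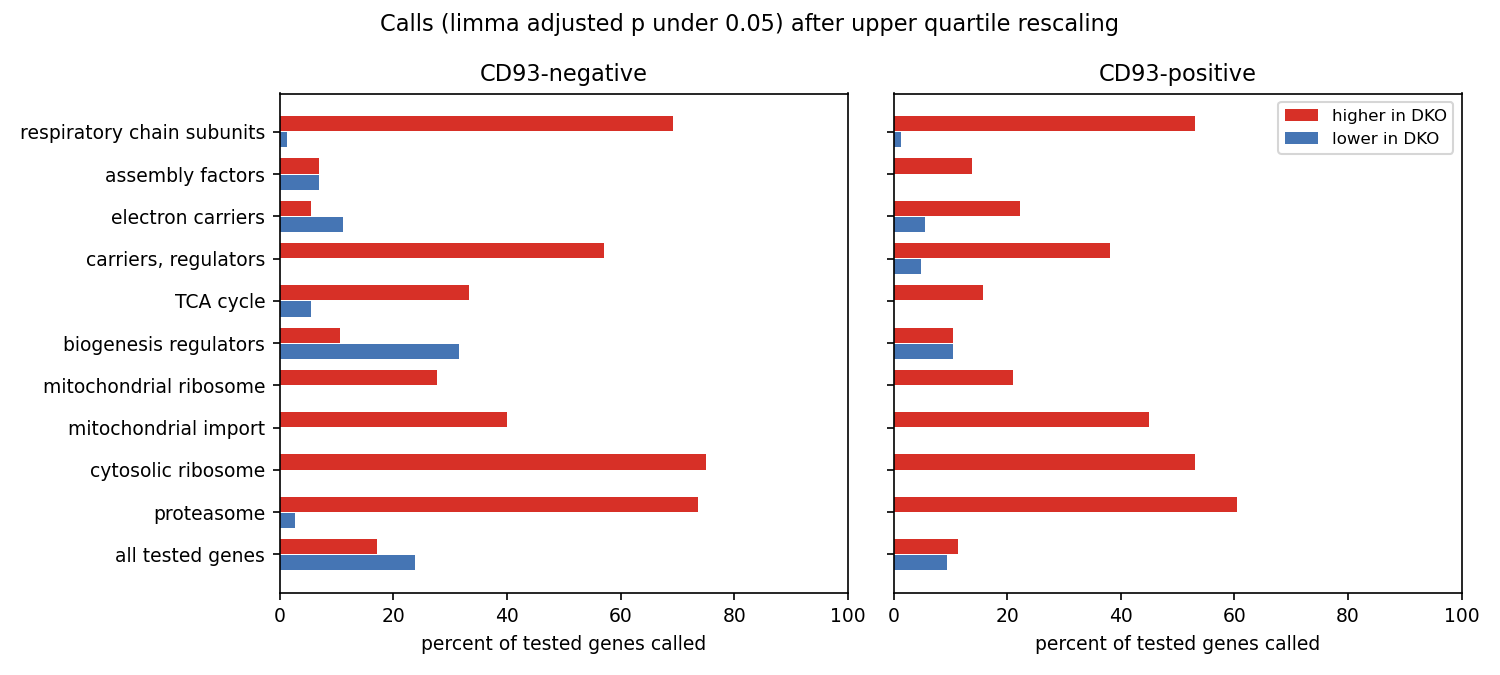
Percent of tested genes of each list that passed the limma test upward (red) or downward (blue) after upper quartile rescaling, for CD93-negative cells on the left and CD93-positive cells on the right, with all tested genes at the bottom. Respiratory chain subunits passed upward in 56 of 81 and 43 of 81, near the cytosolic ribosome and proteasome lists, while assembly factors passed in 2 and 4 of 29. All tested genes passed upward in 17.1% and 11.4%.

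In CD93-positive cells none of these 9 lists had a gene that passed with the authors' scaling, where 1.67% of all genes passed upward and 1.54% downward. After rescaling 11.4% of all genes passed upward and 9.34% downward. Rescaling gave 8 upward and 1 downward for carriers and regulators, 3 of 19 upward for the TCA cycle, 4 of 29 for assembly factors and 4 upward and 1 downward for electron carriers. It gave 2 in each direction for biogenesis regulators, 16 upward for the mitochondrial ribosome, 9 for import, 43 of 81 for the cytosolic ribosome and 23 for the proteasome. The counts for the TCA cycle, assembly factors and biogenesis regulators lie near the shares of all genes. Cycs was then at a log2 change of 0.65 (adjusted p = 0.00238, range 0.00238 to 1.0 across the settings tried).

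Markers of proliferation and of other cell types were counted in the same way. In CD93-negative cells 8 of 8 proliferation markers passed upward, with a sum of 93 to 124 FPKM in the controls and 288 to 313 FPKM in DKO libraries. Plasma cell markers passed upward in 4 of 6, with a sum over 7 genes of 72.7 to 103 FPKM against 338 to 372 FPKM. T cell markers passed in 5 of 8, with sums of 29.8 to 49.5 FPKM against 55.6 to 60.4 FPKM. B cell markers passed in 0 upward and 1 downward of 8, or 5 downward after rescaling. Red cell markers passed upward in 4 of 7, macrophage markers in 2 of 3, NK cell markers in 1 of 6 and neutrophil markers in 0 of 3. Beside these counts, 18.7% of all genes passed upward and 2.79% downward, and 17.1% and 23.8% after rescaling. In CD93-positive cells plasma cell markers passed upward in 4 of 6, with sums of 151 to 209 FPKM against 876 to 1513 FPKM, and proliferation markers in 0 of 8, with overlapping sums of 801 to 928 FPKM and 559 to 983 FPKM. There 1.67% of all genes passed upward. None of the marker genes was at 0 in all libraries of a table, and the part of these cells in the subunit values was not tested. In sorted bulk samples a different mix of cells and a different amount of RNA per cell cannot be told apart.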

How the data were processed

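Strand-specific RNA-seq libraries of sorted splenic B cells were used, 12 of 24 samples. CD93-negative subsets defined by CD23 and CD21, the other 12 samples, were not analysed here. The authors deposited FPKM values; Cufflinks 2.1.1, TopHat2 2.0.8, Bowtie2 2.1.0 and the build mm9 are named in the submitters' processing notes. For CD93-positive cells, 6 value columns that repeat the used ones cell for cell were left out. Depth is unknown, so no interval is given.

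Genes that reached 1 FPKM in 3 or more libraries entered limma 3.58.1 under R 4.3.3 (lmFit, eBayes with a trend, two-sided) on log2(FPKM + 1), within each table, with Benjamini-Hochberg adjustment over all genes tested. With the authors' scaling, the CD93-positive fit gave genes of like expression the same spread, so p-values there do not reflect a gene's own replicates. The fit was tested on simulated data. With the authors' scaling it recovered 86% of log2 changes of 1 in CD93-negative and 4% in CD93-positive cells. For changes of 0.5 it recovered 20% and 0%. After upper quartile rescaling these were 94% and 78% for changes of 1, and 72% and 38% for 0.5.

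Members and lists were chosen with earlier results of these data known. The values of 1 member, which is included in the counts, are not reported here. Named genes were, per comparison and complex, up to 3 increases and 2 decreases that passed; catalytic subunits; isoform sets; Cycs, Ndufab1, Atpif1 and up to 2 genes that passed per pathway list; and Tet2, Tet3 and Cd93. Other settings tried were a pseudocount of 0.1 or 5, a filter of 5 FPKM or none, upper quartile and quantile normalization, no trend, the replicate number as a block, sex as a covariate and each library left out. Promoters came from RefSeq for GRCm38.p6, lengths from GENCODE M21; coordinates from mm9 are not given.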

Additional observations from a re-analysis of the deposited data

Results flagged for a closer look

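The share of complex IV among the members' FPKM differed in direction between the populations. DKO libraries were higher than controls by 1.80 percentage points in CD93-negative cells, where the shares ran from 23.1% to 23.3% in the controls and from 25.0% to 25.1% in DKO libraries. In CD93-positive cells the difference was -0.417 percentage points, with 26.0% to 26.2% in the controls and 25.5% to 25.9% in DKO libraries. Every DKO library of a population moved the same way, and the difference between the populations was not tested. These shares do not change with the scaling of a library. Groups of 3 libraries are too small for a test of outlying libraries.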

How the results depend on the processing

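In CD93-negative cells the 63 members that passed upward became 45 to 72 under the planned settings that kept all libraries and 40 to 67 with 1 library left out (40 without DKO replicate 3). With upper quartile rescaling the count with 1 library left out, chosen after seeing the data, was 42 to 59, where 12.2% to 16.3% of all genes passed upward. The count downward, 0, became 1 with upper quartile rescaling, also with each library left out, and 1 with quantile normalization. It became 1 with scaling to the same library sum with or without globin genes (both added after seeing the data). With upper quartile rescaling and the replicate block it became 2. Among all 10960 genes, 306 passed downward with the authors' scaling, 2609 with upper quartile rescaling and 2314 with quantile normalization. The same library sum gave 2341 genes, or 2334 without globin genes, and upper quartile rescaling with the replicate block 2078. With upper quartile rescaling and 1 library left out, 1857 to 2284 genes passed downward. In CD93-positive cells the count upward, 0, became 43 with upper quartile rescaling, 26 with quantile normalization, 20 with the same library sum, 24 with that sum without globin genes, 2 with upper quartile rescaling and sex as a covariate, and 0 to 3 with 1 library left out. In the same order, the shares of all genes that passed upward were 11.4%, 9.80%, 7.71%, 7.65%, 3.54% and 0.723% to 4.38%. With upper quartile rescaling and 1 library left out the count upward was 10 and 16 without control replicates 1 and 2, 45 without control replicate 3, and 21, 14 and 29 without DKO replicates 1, 2 and 3. Of all genes 5.23% to 10.8% passed upward in these fits. The settings with a library sum, with sex, and with upper quartile rescaling and a library left out were chosen after seeing the data. The count downward, 1, became 0 without a filter, with a filter of 5 FPKM and without a trend. In these fits 5 of 22381, 95 of 8241 and 82 of 11250 genes passed downward. The members' count became 2 with the same sum without globin genes, where 1748 of 11250 genes passed downward. With 1 library left out it was 0 to 1, beside 42 to 212 of all genes. With upper quartile rescaling as well it was 1 to 2, beside 283 to 936 of all genes. Causes were not tested. Among the members named by the rule, 1 value that passed changed sign, Atp5a1 in CD93-positive cells, from -0.00 to 0.24 with upper quartile rescaling (adjusted p = 0.0495, with 0.0495 to 1.0 over its alternatives). Replicate numbers are shared between groups in the labels, yet same-numbered libraries did not deviate together (r = 0.02, -0.11 and -0.09 in CD93-negative and 0.17, -0.11 and -0.14 in CD93-positive cells). With the replicate block 72 members passed upward in CD93-negative cells, or 52 with upper quartile rescaling, and 0 or 9 in CD93-positive cells. The shares of all genes were 22.2% or 14.7% in CD93-negative and 1.23% or 4.81% in CD93-positive cells.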

Other observations

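Transcript length, taken from GENCODE M21 for 79 of 81 members, had a Pearson's r of -0.16 with the log2 change in CD93-negative cells and of 0.05 in CD93-positive cells, as a description across genes that share their libraries. Cytosolic ribosome genes took 16.3% to 17.7% of the FPKM sum in CD93-negative controls and 20.1% to 22.1% in DKO libraries, next to the members' shares of 1.26% to 1.39% and 1.65% to 1.79%. In CD93-positive libraries they took 16.8% to 21.1% and 22.6% to 25.1%, so these genes and the respiratory chain subunits had a higher share in every DKO library of both populations.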
